A study of Mus musculus with 4 samples.

Results

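Nrf2 ChIP-seq of mouse esophagus placed 318 called intervals inside a gene and more than 20 kb from its start. They come from a table of 1940 genes, each listed with the called intervals it holds or lies close to. Of these genes, 1681 had 1 active region (called intervals merged between libraries), so that each of their heights belongs to a single place. Neighbouring genes can list the same interval, and each interval was kept with the gene whose start was nearest, which left 1241 intervals. The 318 deep intragenic intervals are 25.6% of them (exact Clopper-Pearson 95% interval 23.2 to 28.1). Such limits, here and below, treat the listed intervals as independent draws and do not measure spread between animals or libraries. Another 31 gene rows lay as deep in a gene but listed an interval that is nearer to the start of another gene.

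Chromatin immunoprecipitation followed by sequencing (ChIP-seq) recovers DNA bound by a protein with an antibody, here against Nrf2. All mice were C57BL/6 by strain, the tissue was esophagus, and there was 1 ChIP library each for wild-type, Nrf2KO and Keap1KO mice, plus a pooled input library that was not analysed here. Neither the making of the knockout alleles nor the age of the mice or the number of animals per library is stated in the labels. Esophagus holds squamous epithelium, muscle, stroma and vessels, and the cells that carry a signal cannot be told apart in chromatin from tissue. With 1 library per genotype and an unknown sequencing depth, no test between genotypes was possible, and no difference below has a replicate check.

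Nrf2, encoded by Nfe2l2, directs transcription in the response to oxidative and electrophilic stress. It pairs with a small Maf protein and binds the antioxidant response element, whose core is written TGACNNNGC or, less strictly, TGANNNNGC. Keap1 is the adaptor through which a Cul3 ubiquitin ligase marks Nrf2 for degradation, so that Nrf2 accumulates where Keap1 is lost. In Nrf2KO the target of the antibody is missing, and the signal there is its background. Binding far inside a gene can lie in an intron at a distance from any promoter, or at a start site that serves a shorter transcript.

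The label was checked against RefSeq (GRCm38.p6, the assembly also named mm10). By gene identifier 314 of the 318 intervals were matched, and all 314 lay inside the RefSeq gene, 306 in protein-coding genes and 8 in long noncoding RNA genes. The distance from the listed gene start had a median of 63.2 kb (quartiles 35.7 and 114 kb). The genes were long, with a median of 125 kb and a range of 27.0 to 2241 kb, against a median of 49.2 kb for the 10038 RefSeq protein-coding genes over 20 kb. The rule itself favours long genes, since only sequence beyond 20 kb from the start can hold such an interval. Along the gene, 36 intervals lay in the first 25% of its length, 88 between 25 and 50%, 109 between 50 and 75% and 85 in the last 25%. The first 20 kb are barred by the rule, which lowers the counts near the start. The table gives no exons or introns.

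Deep in a gene did not always mean far from a start site. RefSeq start windows (250 bases before to 50 after a start) were at hand for the chromosomes of 303 intervals. The nearest start of any gene was at a median of 36.3 kb (quartiles 19.9 and 64.2 kb). It lay within 5 kb of 22 intervals and within 1 kb of 6. For 241 intervals the table held starts of the same gene, and 29 of them had such a start within 20 kb. For 4 of these it was within 1 kb, at Mllt3, Sgk1, Lrrfip1 and Sertad2.

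The windows of 3 of these internal starts are shown because they are the 3 closest to a deep intragenic interval among starts of the gene that holds it. They come from RefSeq and are printed 5′ to 3′ on the strand of the gene. The window of Mllt3 (chromosome 4, 87806274 to 87806573, minus strand) holds the interval itself, at its base 174, which is 77 bases before the start. Those of Sgk1 (chromosome 10, 21994416 to 21994715, plus strand) and Lrrfip1 (chromosome 1, 91053194 to 91053493, plus strand) begin after the interval, which lies 362 and 484 bases before the start. Capitals mark matches to TGANNNNGC on either strand.
Mllt3: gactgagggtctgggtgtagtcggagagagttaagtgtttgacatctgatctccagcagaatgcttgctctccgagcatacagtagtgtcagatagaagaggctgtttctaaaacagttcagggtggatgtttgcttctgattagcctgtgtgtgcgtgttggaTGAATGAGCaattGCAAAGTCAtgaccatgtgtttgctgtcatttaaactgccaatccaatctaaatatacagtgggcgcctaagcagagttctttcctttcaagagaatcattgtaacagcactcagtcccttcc
Sgk1: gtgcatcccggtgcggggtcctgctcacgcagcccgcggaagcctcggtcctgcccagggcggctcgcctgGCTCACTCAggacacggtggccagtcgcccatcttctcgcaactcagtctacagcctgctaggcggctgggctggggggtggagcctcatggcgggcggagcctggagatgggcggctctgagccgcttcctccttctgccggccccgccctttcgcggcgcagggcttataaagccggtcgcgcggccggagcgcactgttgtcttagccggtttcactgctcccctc
Lrrfip1: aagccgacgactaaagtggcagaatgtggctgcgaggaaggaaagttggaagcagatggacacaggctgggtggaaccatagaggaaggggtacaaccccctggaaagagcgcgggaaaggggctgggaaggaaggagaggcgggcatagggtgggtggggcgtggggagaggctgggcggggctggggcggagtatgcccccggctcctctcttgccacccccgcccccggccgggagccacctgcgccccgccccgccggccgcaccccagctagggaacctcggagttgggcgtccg
The Mllt3 window had 2 matches, beginning at bases 165 and 178, on either side of the position given for the interval. The second, read on the other strand, also fits the stricter TGACNNNGC, which is a special case of the looser core. The Sgk1 window had 1 match and the Lrrfip1 window 0. Of the 6 windows within 1 kb of an interval, 4 held TGANNNNGC, 1 held TGACNNNGC and 2 held TGAGTCA, the core bound by AP-1, searched on both strands too. Over all 32851 RefSeq start windows of this length the shares were 41.3%, 12.4% and 5.20%. A match describes the letters only, and 6 windows are too few to set against these shares.

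At the 4 internal starts of the same gene the antibody background was above the wild-type signal except at Lrrfip1. Mllt3, which encodes a reader of acylated histones in an elongation complex, had heights of 4 in wild-type against 11 in Nrf2KO and 16 in Keap1KO. Sgk1, a kinase induced by serum and glucocorticoids, had 8, 10 and 16 in the same order. Lrrfip1 had 5, 4 and 16, and Sertad2 had 2, 6 and 17. Over the 6 intervals within 1 kb of any start the medians were 5 in wild-type against 7.50 in Nrf2KO and 16.5 in Keap1KO. Over the 281 intervals more than 5 kb from any start the medians were 4, 3 and 17.

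The deep intragenic intervals were low in wild-type and Nrf2KO and several-fold higher in Keap1KO. A height is the deposited peak signal, a whole number for every interval used here, with no unit stated. Its median over the 318 intervals was 4 in wild-type (quartiles 3 and 6, range 1 to 18), 3 in Nrf2KO (2 and 5, range 0 to 12) and 17 in Keap1KO (14 and 21, range 4 to 68). Keap1KO heights of 284 intervals exceeded 12, the highest Nrf2KO height of any of them. Much of this separation follows from the choice of intervals, since 316 were called in Keap1KO, at heights of 10 or more. The share over all 1241 intervals was not counted, so nothing is read from it. In Nrf2KO, 168 intervals were at 3 or less, 21 of these at 0, and 7 were at 10 or more.

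Nearly every deep intragenic interval was listed because of a call in Keap1KO. The authors called 316 of the 318 there, against 99% of all 1241 intervals. In wild-type they called 4, against 3.22% of all intervals, and in Nrf2KO 0, against 0% of all. Of the 4 called in wild-type, 2 were called in Keap1KO too and 2 in wild-type only. Of all 1241 intervals 40 were called in wild-type, 28 of these in Keap1KO too. The lowest Keap1KO height among intervals called there was 10. This choice raises the Keap1KO heights relative to the other libraries, so ratios to Keap1KO describe the listed intervals and not the genome.

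**Figure D1:**
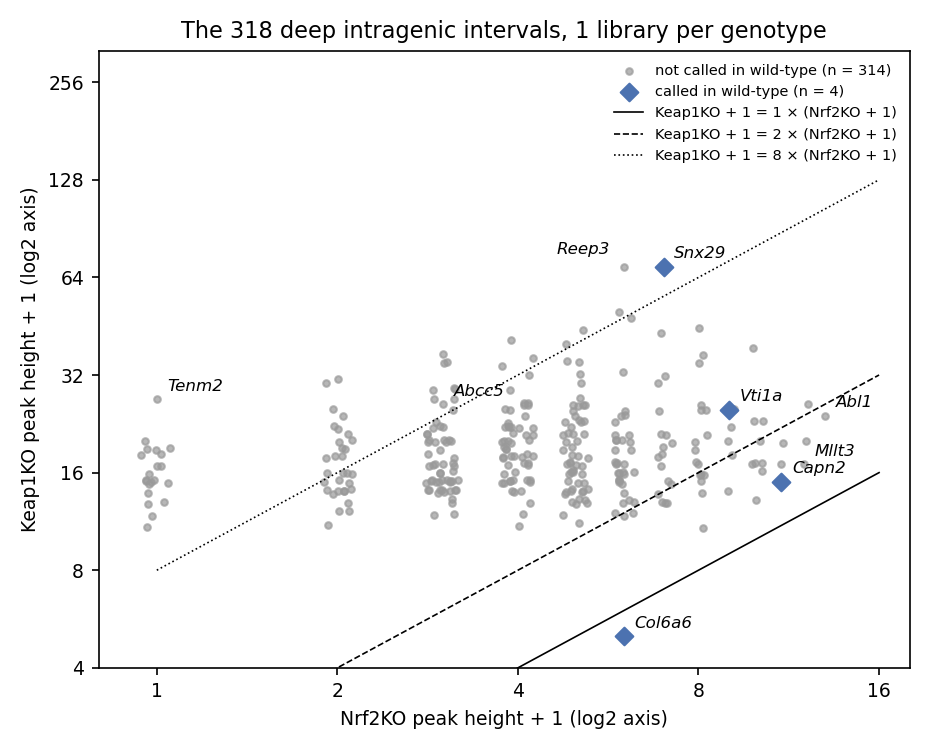
Keap1KO against Nrf2KO peak height of the 318 deep intragenic intervals, each with 1 added, on log2 axes with a small random shift to separate equal values (labelled points are not shifted). Lines mark equal, 2-fold and 8-fold heights; all intervals except Col6a6 lie above the line of equal heights, and the 4 called in wild-type are drawn as diamonds.

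The comparison of Keap1KO with wild-type asks what is gained when the protein that degrades Nrf2 is missing. Ratios here are of heights with 1 added to each, on a log2 scale, which understates the change of low intervals, and folds are on that scale. Keap1KO was higher at 316 of the 318 intervals, against 98.5% of all 1241. It was at least 2-fold higher at 291 (91.5%, interval 87.9 to 94.3), against 86.7% of all, and at least 2-fold lower at 1, against 0.322% of all. The median log2 ratio was 1.84 (quartiles 1.49 and 2.32), against 1.74 over all intervals.

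Snx29 and Reep3 shared the highest Keap1KO height. Snx29, a member of the sorting nexins that shape endosomal membranes, had 18 in wild-type against 6 in Nrf2KO and 68 in Keap1KO at a place 134 kb into the gene (chromosome 16, position 11456448). Reep3, which helps to clear endoplasmic reticulum from mitotic chromosomes, had 8, 5 and 68 at 70.9 kb (chromosome 10, position 67026080). They stood 3.63-fold and 7.67-fold above wild-type, and Snx29 had the highest wild-type height of all 318.

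The next 8 by Keap1KO height ran from 49 down to 38. Btbd11, a protein with a BTB domain, had 9 in wild-type against 5 in Nrf2KO and 49 in Keap1KO, and Ssh2, a phosphatase that activates the actin-severing factor cofilin, had 9, 5 and 47. Hs2st1, which sulfates heparan sulfate chains, had 8, 7 and 44, and Zfp704, a zinc finger protein, 4, 4 and 43. Sh3pxd2a, a scaffold of podosomes, had 5, 6 and 42 at a place 4347 bases from the start of another gene. Of these 8, wild-type was above Nrf2KO at 6, equal at Zfp704 and below at Sh3pxd2a. Pgbd5, a gene derived from a transposase, had 5, 3 and 40. Hlcs, the enzyme that attaches biotin to carboxylases, had 11, 4 and 39. Fam53b had 12, 9 and 38. These tall intervals were few: 24 of the 318 (7.55%) reached a height of 30 in Keap1KO, against 13.0% of all 1241, and the tallest interval of the whole set had 194.

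The largest ratios over wild-type belonged to intervals at 1 in wild-type. Map1b, a microtubule-associated protein, had 1 in wild-type against 4 in Nrf2KO and 34 in Keap1KO, 17.5-fold above wild-type and 7-fold above Nrf2KO. Vipr2, a receptor for vasoactive intestinal peptide, had 1, 4 and 29. Ttc27 had 1, 6 and 20, Tamm41, an enzyme of mitochondrial cardiolipin synthesis, 1, 2 and 19, and Eif3h, a translation initiation factor subunit, 1, 4 and 18. Evi5, given below, had the same ratio over wild-type as Eif3h. A choice for a large ratio over wild-type favours low wild-type heights, so nothing is read from wild-type against Nrf2KO at these genes.

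Against the antibody background the gain was larger. Keap1KO was above Nrf2KO at 317 of the 318 intervals, against 98.8% of all, and at least 2-fold above it at 299 (94.0%, interval 90.8 to 96.4), against 83.8% of all. At 0 intervals was it at least 2-fold lower (upper limit of the exact interval 1.15%), against 0.161% of all. The median log2 ratio was 2.20 (quartiles 1.58 and 2.74), against 1.89 over all intervals. At 192 intervals (60.4%) Keap1KO was at least 4-fold above Nrf2KO, against 46.7% of all, and at 59 (18.6%) at least 8-fold, against 15.7% of all. Counting an excess of wild-type or Keap1KO, 300 intervals were at least 2-fold above the background, against 83.9% of all.

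The 5 intervals with the largest Keap1KO over Nrf2KO ratio among those of at least 18 in Keap1KO were all listed at 0 in Nrf2KO, so no fold is given. Tenm2, a teneurin of cell contacts between neurons, had 3 in wild-type and 26 in Keap1KO at a place 792 kb into the gene. Mapre2, a protein of growing microtubule ends, had 2 and 19. Evi5, an activator of Rab GTPase hydrolysis, had 1 and 18, Sez6l had 4 and 18, and Usp29, a deubiquitinase, 3 and 18. Over all 21 intervals at 0 in Nrf2KO, wild-type ran from 1 to 7 with a median of 3, and Keap1KO from 10 to 26 with a median of 14.

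In 19 intervals Keap1KO was less than 2-fold above Nrf2KO, where 94.0% of the 318 and 83.8% of all 1241 reached that fold. The medians of these 19 were 9 in Nrf2KO (range 5 to 12) and 14 in Keap1KO. A choice for a low ratio over Nrf2KO favours high Nrf2KO heights, so their background is not read as a result. The 5 with the lowest ratio were Col6a6, Agpat4, Capn2, Casc4 and Mllt3. Agpat4, an acyltransferase of phospholipid synthesis, had 3 in wild-type against 9 in Nrf2KO and 12 in Keap1KO, and Casc4 had 3, 7 and 10. Abl1, a tyrosine kinase, had the highest Nrf2KO height of the 318, with 11 in wild-type against 12 in Nrf2KO and 23 in Keap1KO, at a place 82.7 kb from the listed start and 11.1 kb from another start of the same gene. Chd2, a chromatin remodeler, had 9, 11 and 25, Kdm2a, a histone demethylase, 6, 11 and 19, and Vgll4, a cofactor of TEAD factors, 6, 10 and 19.

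**Figure D2:**
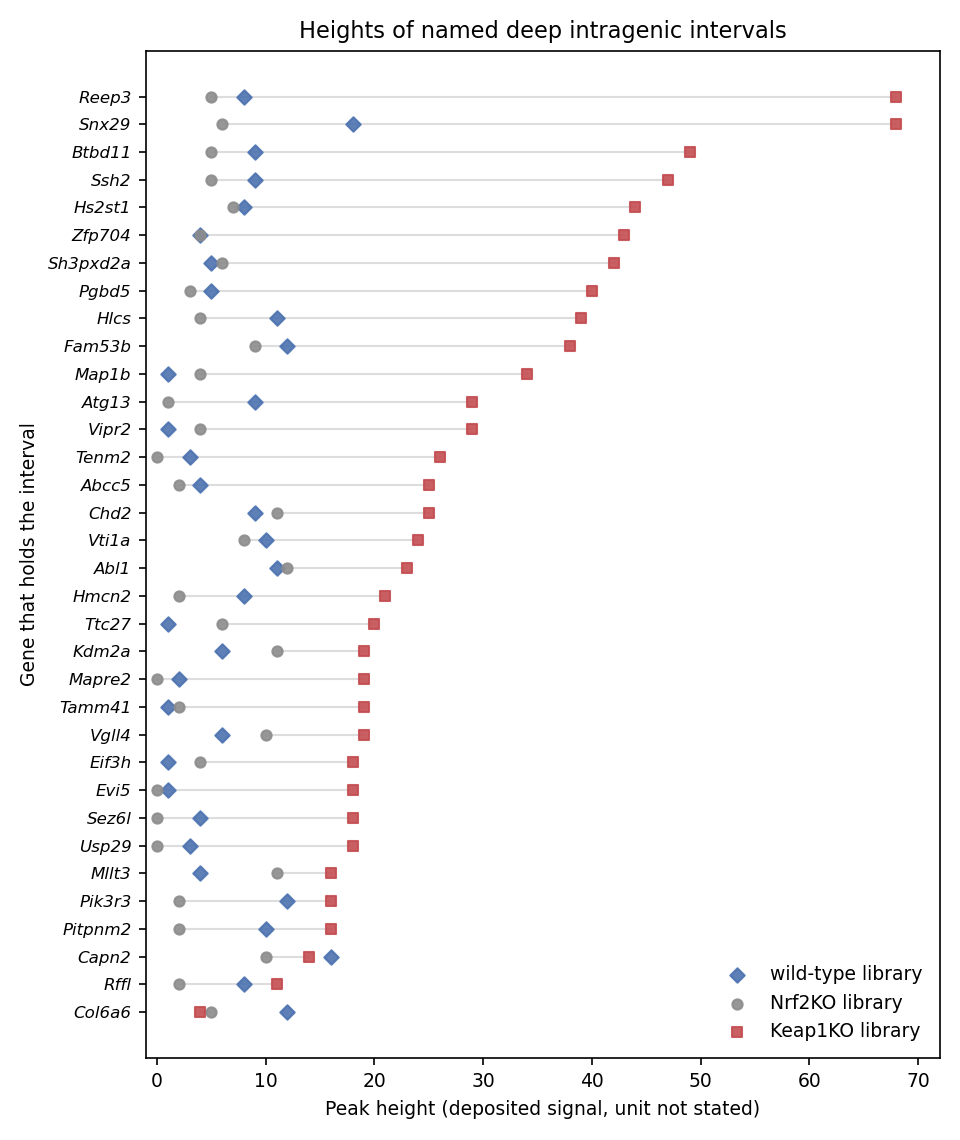
Peak height in each of the 3 libraries for deep intragenic intervals named by the rules on height, ratio and calls, ordered by Keap1KO height. The Keap1KO square is the rightmost mark in every gene except Capn2 and Col6a6, where the wild-type diamond is.

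Wild-type against Nrf2KO asks whether Nrf2 occupies these places while Keap1 is present. Wild-type was above Nrf2KO at 182 intervals (57.2%, interval 51.6 to 62.7), against 52.1% of all 1241, equal at 34 and below at 102. It was at least 2-fold higher at 80, against 20.1% of all, and at least 2-fold lower at 29, against 9.19% of all. These counts depend on the pseudocount, since the heights are low: with 5 in place of 1 they were 12 and 2. The median log2 ratio was 0.32 (quartiles −0.32 and 0.97), against 0.17 over all intervals. With wild-type scaled to the mean height of Nrf2KO over all intervals, a shift of the overall median from 0.17 to 0.01, the median of the deep intervals was 0.18 and 51 were at least 2-fold higher.

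The largest excess of wild-type among intervals of at least 8 in wild-type was at Atg13, which starts autophagy with the kinase Ulk1. It had 9 in wild-type against 1 in Nrf2KO and 29 in Keap1KO, a 5-fold excess of wild-type over Nrf2KO. Pik3r3, a regulatory subunit of phosphoinositide 3-kinase, followed with 12, 2 and 16. Pitpnm2, a phosphatidylinositol transfer protein, had 10, 2 and 16 at a place 2.61 kb from another start of its gene. Hmcn2, a hemicentin of the extracellular matrix, had 8, 2 and 21, and Rffl, a ubiquitin ligase, 8, 2 and 11. All 5 were higher still in Keap1KO.

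The authors' 4 wild-type calls did not all behave alike. Snx29 was higher in Keap1KO, as given above. Vti1a, a SNARE protein of vesicle fusion, had 10 in wild-type against 8 in Nrf2KO and 24 in Keap1KO, 2.27-fold above wild-type. Capn2, the catalytic subunit of a calcium-dependent protease, had 16, 10 and 14. Col6a6, a collagen VI chain, had 12, 5 and 4, and its Keap1KO to wild-type ratio was −1.38 on the log2 scale. Capn2 and Col6a6 were called in wild-type only, and they are the 2 intervals at which Keap1KO was below wild-type.

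Tall Keap1KO intervals were set apart to compare wild-type with Nrf2KO there. Among the 24 intervals of at least 30 in Keap1KO, wild-type was above Nrf2KO at 18, equal at 3 and below at 3, with medians of 6 and 4. Of all 161 intervals of that height wild-type was above at 75.2%. All 1241 intervals were divided by Keap1KO height at their quartiles. In the highest band (24 to 194) wild-type was above Nrf2KO at 71.9% of 57 deep intragenic intervals, and in the lowest (2 to 14) at 55.3% of 103. The middle bands gave 50.7% and 55.3%. In the highest band the share was 72.7% for intervals 1 to 20 kb into a gene and 71.8% outside genes. These differences were not tested. Over the 318 intervals the heights of wild-type and Keap1KO had a Spearman correlation of 0.265 and a Pearson r of 0.270 on the log2 scale. For Nrf2KO and Keap1KO these were 0.151 and 0.174. The intervals share their libraries and, in part, their local background, so these values describe the listed intervals only.

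The intervals were next compared with the rest of the 1241. They resembled the 230 intervals 1 to 20 kb into a gene and the 312 more than 1 kb from a start and outside genes, and lay below the 381 intervals within 1 kb of a gene start in background. The median Nrf2KO height was 3 for the deep intragenic intervals, 4 for those 1 to 20 kb into a gene, 4 outside genes and 7 at gene starts. Median log2 ratios of Keap1KO to Nrf2KO were 2.20, 2.17, 2.07 and 1.26 in that order. Median Keap1KO heights were 17, 19, 18 and 17. Intervals are not replicates, and the difference between these places was not tested.

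**Figure D3:**
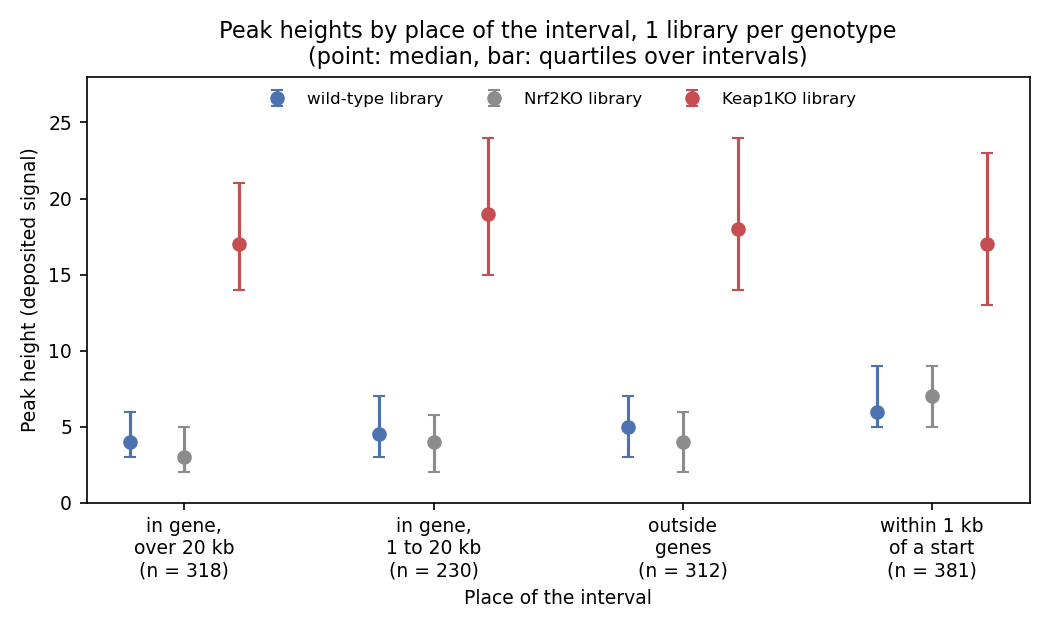
Median peak height (points) with quartiles over intervals (bars) in each library, for 4 places of the interval among the 1241. The Keap1KO medians lie between 17 and 19 everywhere, while the Nrf2KO median is 3 for the deep intragenic intervals and 7 within 1 kb of a gene start.

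The lower background held at matched Keap1KO height. In the 4 bands of Keap1KO height, from lowest to highest, the mean Nrf2KO height of deep intragenic intervals was 3.06, 3.88, 3.82 and 4.16. At gene starts it was 6.70, 7.14, 7.68 and 7.44. In intervals 1 to 20 kb into a gene it was 3.56, 3.60, 4.23 and 4.41. In wild-type the same means were 4.06, 4.15, 4.47 and 6.18 for the deep intervals and 6.17, 6.47, 7.27 and 9.04 at gene starts.

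Heights followed no clear order with depth into the gene. In the 121 intervals at 20 to 50 kb the median Keap1KO height was 17 and the median Keap1KO to Nrf2KO ratio 2.12 on the log2 scale. The 103 at 50 to 100 kb gave 17 and 2.22, the 53 at 100 to 200 kb 17 and 2.17, and the 41 beyond 200 kb 16 and 2.32. Over the 318 intervals the Spearman correlation of distance was −0.06 with Keap1KO height and 0.07 with that ratio. The 194 intervals nearer to the gene end had a median ratio of 2.19, and the 124 nearer to the start 2.21.

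**Figure D4:**
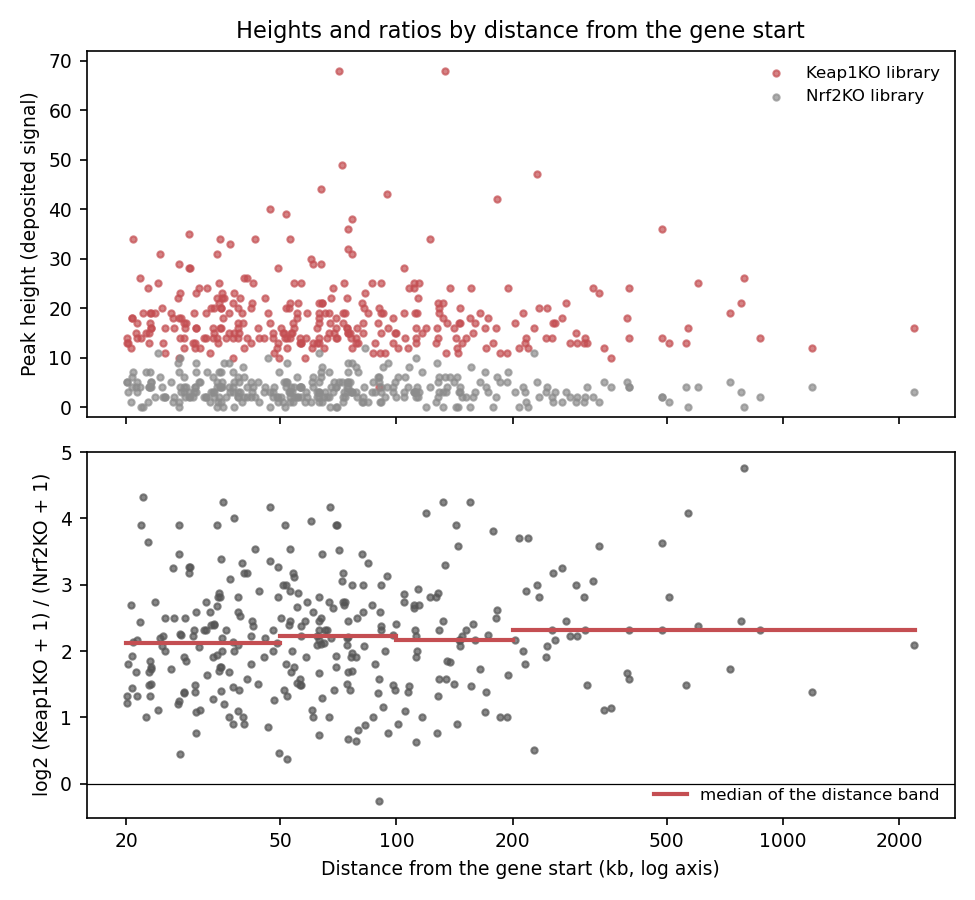
Peak height in Keap1KO and Nrf2KO (upper panel) and the log2 ratio of the heights with 1 added (lower panel) against the distance from the gene start on a log axis, 1 point per deep intragenic interval. Red lines in the lower panel are medians of 4 distance bands, which lie between 2.12 and 2.32.

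The farthest intervals were in very long genes. Cntnap2, a neurexin family protein of axons, had 7 in wild-type against 3 in Nrf2KO and 16 in Keap1KO at 2180 kb from the listed start, and 4.65 kb from another start of the gene. Rbfox1, a splicing regulator, had 5, 4 and 12 at 1192 kb, and 6.95 kb from another start. Macrod2, which removes ADP-ribose from proteins, had 2, 2 and 14 at 871 kb. Camta1, a calmodulin-binding transcription activator, had 7, 3 and 21 at 779 kb. At the limit of the rule, the 5 just above 20 kb (Wwtr1, Twsg1, 4930542D17Rik, Snx10 and Fam69a) had Keap1KO heights of 12 to 18 and Nrf2KO heights of 1 to 6. The 5 just under 20 kb, which the rule leaves out (Mll1, Prrx2, Nsg2, Il20rb and Stk35) had 12 to 29 and 3 to 5.

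Genes of the classical Nrf2 response were counted among the deep intragenic intervals with a list of symbols. Of 92 pathway genes 39 are longer than 20 kb, and 1, Abcc5, had a deep interval, which is 0.314% of the 318. Of all 10038 RefSeq protein-coding genes over 20 kb, few had one too, with 306 deep intervals in protein-coding genes. The count of 1 in 39 is therefore not read as a scarcity. Pathway genes with more than 1 active region were left out by the rule. Among the other 923 intervals 34 were listed under a pathway gene (3.68%). Abcc5, an exporter of the multidrug resistance family, had 4 in wild-type against 2 in Nrf2KO and 25 in Keap1KO, 5.20-fold above wild-type and 8.67-fold above Nrf2KO, at 54.5 kb into the gene (chromosome 16, position 20371904). The difference in shares was not tested.

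Signalling genes made up the largest of the gene groups defined by symbol. The kinase and phosphatase group had 23 deep intervals (7.23%, against 2.28% of the other intervals). The rule favours long genes, and 71.4% of the genes in this list are over 20 kb, against 45.8% of all RefSeq protein-coding genes. In Keap1KO 19 of the 23 were at least 2-fold above Nrf2KO, against 94.0% of the 318 and 83.8% of all 1241 intervals. Map3k14, the kinase that starts noncanonical NF-κB signalling, was the tallest in the list. It had 8 in wild-type against 7 in Nrf2KO and 34 in Keap1KO at 20.8 kb. The list, made by symbol, leaves out the phosphatase Ssh2, given above, which had 47 in Keap1KO. Src, a tyrosine kinase, had 7, 4 and 23, and Cdk14, a cyclin-dependent kinase, 2, 2 and 22. Set against Nrf2KO, wild-type was 2-fold or more higher at 7 of the 23 and as much lower at 2. Over the 318 these shares were 25.2% and 9.12%, and over all 1241 20.1% and 9.19%. Igf1r, the receptor of insulin-like growth factor 1, was among the lowest of the group, with 3, 7 and 13.

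The list of small GTPases and their regulators, which by symbol also took the G protein regulator Rgs3, had 10 deep intervals (3.14%, against 2.17% of the others). In Keap1KO 8 of the 10 were at least 2-fold above Nrf2KO, against 94.0% of the 318 and 83.8% of all 1241. Rasa3, which switches off Ras, had 3 in wild-type against 4 in Nrf2KO and 25 in Keap1KO. Rgs3, a regulator of G protein signalling, had the lowest wild-type over Nrf2KO ratio of the group, with 1, 9 and 16. The ubiquitin group had 10 as well (3.14%, against 2.49% of the others). In Keap1KO all 10 were at least 2-fold above both other libraries. Of the 318, 91.5% passed that fold over wild-type and 94.0% over Nrf2KO, and of all 1241 86.7% and 83.8%. The count of 10 is near the shares of the 318 and is not read as a trait of the group. The group, defined by symbol, leaves out the ubiquitin ligase Rffl, given above. Its Keap1KO height was 1.33-fold above wild-type and 4-fold above Nrf2KO, so the count holds for the listed genes only. The ligase gene Rnf144b had 4, 4 and 34, and the deubiquitinase gene Usp48 had 5, 2 and 28.

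Transcription and chromatin genes had 19 deep intervals (5.97%, against 4.77% of the others). In Keap1KO 18 of them were at least 2-fold above Nrf2KO, with Kdm2a the exception, against 94.0% of the 318 and 83.8% of all 1241 intervals. Set against Nrf2KO, wild-type was 2-fold or more higher at 0 of the 19 and as much lower at 3, among them Foxo1, a transcription factor held back by insulin signalling, with 2 in wild-type against 7 in Nrf2KO and 18 in Keap1KO. Over the 318 intervals 25.2% were that much higher and 9.12% that much lower, and over all 1241 20.1% and 9.19%. The list, made by symbol, leaves out genes such as Camta1 and Mllt3, each given above. Wild-type was 2-fold above Nrf2KO at Camta1 (7 against 3) and 0.417-fold of it at Mllt3 (4 against 11). The count of 0 therefore holds for the listed genes only. On the log2 scale the median wild-type to Nrf2KO ratio of the group was 0.00, as in the ubiquitin and cytoskeleton groups, against 0.32 over the 318 intervals. Nr3c2, the mineralocorticoid receptor, had 5, 3 and 19, and Rora, an orphan nuclear receptor, 4, 3 and 17.

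Cytoskeleton and adhesion genes had 21 deep intervals (6.60%, against 2.17% of the others). Of the genes in this list 62.3% are over 20 kb, against 45.8% of all RefSeq protein-coding genes. In Keap1KO 19 of the 21 were at least 2-fold above Nrf2KO, against 94.0% of the 318 and 83.8% of all 1241. After Map1b the tallest in the list was Nav2, a microtubule-binding navigator protein. It had 4 in wild-type against 4 in Nrf2KO and 25 in Keap1KO at 603 kb. The list leaves out the podosome scaffold Sh3pxd2a, given above, with 42 in Keap1KO, and the adhesion molecule Alcam with 31. Lpp, a protein of focal adhesions, had 4, 1 and 23, and Actn4, an actin cross-linker, 4, 9 and 19. The membrane transport list had 13 deep intervals (4.09%, against 4.23% of the others). By symbol it also took the transmembrane protein genes Tmem108, Tmem44, Tmem55a and Tmem87b, which are not named as transporters. All 13 were at least 2-fold above Nrf2KO in Keap1KO, against 94.0% of the 318 and 83.8% of all 1241. Slc35f4, a solute carrier, had 5, 3 and 33, and Kcnj6, a potassium channel, 4, 2 and 26.

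Genes known from neurons and synapses had 7 deep intervals, against 1 among the other 923, and 36 of the 39 genes of that list are longer than 20 kb. Nrxn3, a presynaptic adhesion protein, had 2 in wild-type and 16 in Keap1KO and was listed at 0 in Nrf2KO. Also in the group were Tenm2, Slit3, Cntnap2, Robo2 and Rbfox1, and at all 7 Keap1KO was 2-fold or more above both other libraries. Of the 318 intervals 91.5% passed that fold over wild-type and 94.0% over Nrf2KO, and of all 1241 86.7% and 83.8%. Of the marker lists for cell types of the esophagus, that for muscle had 1 deep interval (Ttn, titin, with 6, 3 and 21) and that for stroma, vessels and immune cells 0. Antibody signal inside a gene does not check the tissue of the sample, and expression of these genes was not measured here.

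**Figure D5:**
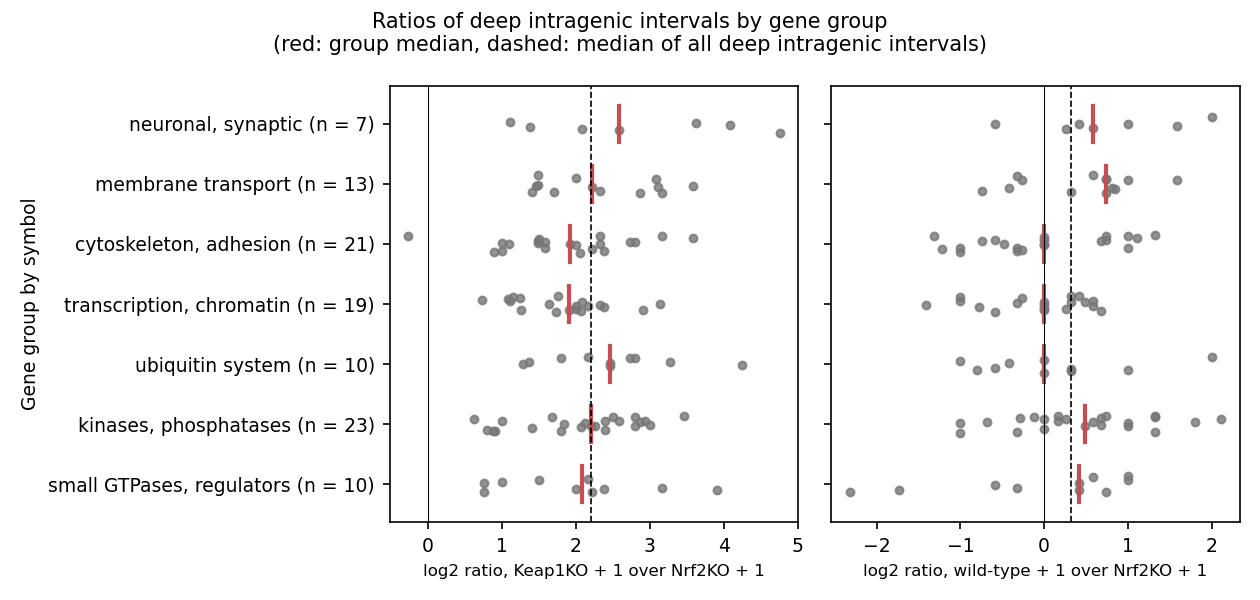
Log2 ratios of Keap1KO to Nrf2KO (left) and of wild-type to Nrf2KO (right), heights with 1 added, for deep intragenic intervals in 7 gene groups defined by symbol (grey points). Red bars are group medians and dashed lines the medians of all 318 intervals, 2.20 and 0.32; group medians on the left lie between 1.91 and 2.58.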

How the data were processed

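Nrf2 ChIP-seq of mouse esophagus was analysed from the deposited table of genes with called intervals. The authors used BWA, MACS2 2.1.0 and mm10, per the submitters' processing notes, which state no roles. Parameters, depth and the scaling of libraries: not given in the sources used here. Per the file headers, the deposited signal is an average peak height over the active regions of a gene, with a flag for a call in each library. Only genes with 1 active region were used, where all 5043 heights were whole numbers. No counting interval can be given for a height.

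Positions were computed from gene ends, strand and listed distance, and 303 of 318 were multiples of 16 bp. Names, lengths and start windows came from RefSeq tables of GRCm38.p6, with start windows not used here for 15 intervals on chromosome 18. No sequence by coordinates was read, so the search for the element at the intervals and its shorter window were not run. The analysis used Python 3.11.15 and pandas 2.3.3, and the functions were tested on simulated data. The script takes log2 ratios with a pseudocount of 1.

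The rule took the highest, the farthest, the nearest to 20 kb and the most extreme in each ratio, wild-type calls, pathway genes and the 2 tallest of each gene list, 56 genes in all; others named were chosen after their values were seen. The intervals and the 11 gene lists were chosen with earlier results of these data known. After the table was read, the symbol pattern for T-box genes was narrowed, because it also took Tbxas1. Some results, that of the squamous marker list among them, are not reported here.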

Additional observations from a re-analysis of the deposited data

How the results depend on the processing

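The settings with intervals more than 5 kb from any start and with intervals not called in wild-type were added after seeing the data. Of 118 main values under an alternative, 79 stayed within a margin on size (the 95% interval of the median or share, or 1.5 times for a count) and 39 moved, and of 392 values of single intervals 311 and 81. None of these 510 changed sign. By construction a filter leaves fewer intervals and a larger pseudocount gives smaller ratios; otherwise the cause was not tested. Unknown depth limits every ratio between libraries. No paired analysis was possible because there was a single library (1) per genotype.

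The median log2 ratio of Keap1KO over wild-type became 1.95 with a pseudocount of 0.5. With a pseudocount of 5 it was 1.29, with 80.8% at least 2-fold higher and 0 lower, 1.44 and 83.0% for Keap1KO over Nrf2KO, and 0.17 for wild-type over Nrf2KO, with 12 higher (3.77%) and 2 lower. Intervals of at least the median mean height numbered 117, with Keap1KO higher than wild-type at 110 and lower at 0, 109 higher over Nrf2KO, and 25 and 5 for wild-type over Nrf2KO. Distances over 50 kb left 197 intervals, 196 called in Keap1KO, with 181 and 184 higher in Keap1KO and 49 higher and 15 lower in wild-type. Intervals called in Keap1KO at 18 or more numbered 142, with medians of 2.07 over wild-type (140 higher, 98.6%, 0 lower) and 2.46 over Nrf2KO (139 higher, 97.9%), and 35 higher and 8 lower for wild-type over Nrf2KO. Scaling wild-type gave 0.18, with 51 higher (16.04%). Without the intervals called in wild-type, 0 were lower in Keap1KO than in wild-type.

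Counting calls only from a height of 18, 142 remained in Keap1KO and 1 in wild-type, the latter called in both (1). With any height of at least 12 taken as a call there were 7 in wild-type, 1 in Nrf2KO and 6 in both wild-type and Keap1KO. The shares over all 1241 intervals were not counted at these heights, so nothing is read from these counts.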

Other observations

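The count by chromosome was made after the values were seen. The X chromosome held 1 of the 318 deep intragenic intervals (0.314%) and 15 of all 1241 intervals (1.21%), whereas it holds 3.98% of RefSeq protein-coding genes over 20 kb. Per Mb of such genes beyond 20 kb from the start, it had 0.0293 deep intervals, against 0.196 to 0.723 on the 19 autosomes (median 0.424). The sex of the mice is not stated in the labels, and the difference was not tested.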
